A study of Mus musculus with 8 samples.

Results

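The CDK inhibitors described here are 6 mouse genes, Cdkn1a, Cdkn1b, Cdkn2a, Cdkn2b, Cdkn2c and Cdkn2d, taken by name from a table of 53697 genes. All 6 had enough reads to be tested, among 18322 genes that were. RNA was measured by RNA-seq in 8 libraries of tumor cells from 4 mice with the MMTV-PyMT transgene, in which a viral promoter active in mammary epithelium drives the polyoma middle T oncogene. All mice were on the C57BL/6 background. Of these, 2 were PyMT-Dll1GFP mice, which carried the Dll1-GFP-IRES-Cre-ERT2 knock-in allele, and 2 were PyMT-Dll1mCh mice, in which a BAC-based transgene places mCherry under Dll1 sequences. Dll1 is a ligand of Notch receptors. From each mouse, digested tumor cells were depleted of cells stained for CD45, CD31 or TER119, and sorted on reporter fluorescence to give 1 Dll1+ and 1 Dll1- library, so a group of 1 reporter and 1 Dll1 status held 2 libraries. The mice of a reporter are called mouse 1 and mouse 2. The sources used here give neither the age of these mice nor a treatment.

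CDK inhibitors are small proteins that hold back the kinases which drive a cell from G1 into S phase. The Cip/Kip members Cdkn1a (p21) and Cdkn1b (p27) bind cyclin and kinase together, mainly at CDK2, while the INK4 members Cdkn2a (p16Ink4a), Cdkn2b (p15), Cdkn2c (p18) and Cdkn2d (p19Ink4d) bind CDK4 and CDK6 alone and keep D cyclins away. When these kinases are inhibited, RB stays bound to E2F factors and S-phase genes stay off. Cdkn1a is a well-known target of p53, the p27 protein is held down by degradation through SKP2, Cdkn2a and Cdkn2b lie side by side in a locus silenced by Polycomb, and Cdkn2c is known as an E2F target. The comparisons ask whether these inhibitors are transcribed at different levels in Dll1+ and Dll1- tumor cells of a mouse, and in the 2 reporter lines.

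In the GRCm38 build, Cdkn1a spans chr17:29090976-29100727 on the + strand and Cdkn1b chr6:134920401-134925513 on the + strand. Cdkn2a spans chr4:89274471-89294653 and Cdkn2b chr4:89306299-89311039, both on the - strand with 11645 bases between them. Cdkn2c lies farther along the same chromosome, at chr4:109660876-109667189 on the - strand, and Cdkn2d at chr9:21288410-21291407 on the - strand. Of the 6, only Cdkn1a shared exon bases with another annotated gene, an unclassified transcript on the opposite strand that had 0 to 4 counts per library. Cdkn2a has 2 annotated transcripts with separate first exons, one for p16Ink4a and one for p19Arf, an activator of p53 read in another frame. The values are counts per gene and do not separate them.

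The windows around the RefSeq start sites (250 bases before to 50 after, GRCm38.p6) were searched on both strands for 5 motifs, and the windows of the 6 genes were found in 9 entries. Those of the upstream Cdkn1a start, of the Cdkn2a and Cdkn2b locus and of the upstream Cdkn2c start are shown. Cdkn1a was the member whose Dll1+ and Dll1- libraries did not overlap in the TMM-scaled counts given below. Cdkn2a and Cdkn2b are neighbours, and Cdkn2c was the member called over the 4 mice. The downstream Cdkn1a window, with 2 GC boxes and no p53 core, and the downstream Cdkn2c window, with no match to any motif, are not shown. The windows shown are printed in the direction of the gene. Capitals mark, for Cdkn1a, the p53 core (CATG, any 6 bases, CATG), and for the others the E2F motif TTTNNCGC or the GC box GGGCGG.
Cdkn1a, upstream start, chr17:29090729-29091028, + strand: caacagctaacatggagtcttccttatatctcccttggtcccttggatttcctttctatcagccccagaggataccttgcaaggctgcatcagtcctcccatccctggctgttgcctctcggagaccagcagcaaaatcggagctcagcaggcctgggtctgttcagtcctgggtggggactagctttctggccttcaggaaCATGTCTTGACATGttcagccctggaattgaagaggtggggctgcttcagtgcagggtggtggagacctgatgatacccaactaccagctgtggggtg
Cdkn2a, upstream start, chr4:89294570-89294869, - strand: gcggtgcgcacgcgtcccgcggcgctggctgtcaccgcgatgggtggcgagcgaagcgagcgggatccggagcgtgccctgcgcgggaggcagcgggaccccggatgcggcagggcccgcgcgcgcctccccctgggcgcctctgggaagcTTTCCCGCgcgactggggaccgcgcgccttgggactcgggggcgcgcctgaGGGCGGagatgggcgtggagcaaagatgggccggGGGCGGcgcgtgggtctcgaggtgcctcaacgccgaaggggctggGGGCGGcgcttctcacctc
Cdkn2a, downstream start, chr4:89282143-89282442, - strand: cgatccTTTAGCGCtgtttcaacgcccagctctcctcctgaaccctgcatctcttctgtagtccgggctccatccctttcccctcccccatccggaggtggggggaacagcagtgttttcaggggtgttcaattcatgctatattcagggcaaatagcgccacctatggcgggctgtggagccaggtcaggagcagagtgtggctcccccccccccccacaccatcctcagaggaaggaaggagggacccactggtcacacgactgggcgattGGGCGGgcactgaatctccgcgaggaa
Cdkn2b, chr4:89310983-89311282, - strand: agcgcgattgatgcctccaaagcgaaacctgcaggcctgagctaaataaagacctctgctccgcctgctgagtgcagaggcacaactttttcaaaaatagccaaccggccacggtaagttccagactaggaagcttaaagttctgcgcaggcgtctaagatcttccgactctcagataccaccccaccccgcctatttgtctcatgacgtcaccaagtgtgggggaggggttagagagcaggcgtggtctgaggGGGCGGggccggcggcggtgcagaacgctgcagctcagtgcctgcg
Cdkn2c, upstream start, chr4:109666707-109667006, - strand: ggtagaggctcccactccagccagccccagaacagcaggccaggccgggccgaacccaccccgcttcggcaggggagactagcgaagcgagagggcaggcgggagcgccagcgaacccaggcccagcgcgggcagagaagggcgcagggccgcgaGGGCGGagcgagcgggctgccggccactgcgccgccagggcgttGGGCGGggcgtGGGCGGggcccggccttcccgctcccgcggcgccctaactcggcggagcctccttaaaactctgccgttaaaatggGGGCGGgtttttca

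The p53 core was found in 1 of the 9 windows, that of the upstream Cdkn1a start, where CATGTCTTGACATG ended 34 bases before the start. Over the genome, 0.71% of 32817 such windows held this motif. The E2F motif, held by 5.16% of windows, was found in both Cdkn2a windows and in none of the other 7. The GC box, held by 35.6% of windows, was found 5 times in the Cdkn2d window, 4 times in the window of the upstream Cdkn2c start and 3 times in the window of the upstream Cdkn2a start. The FoxO motif GTAAACA (3.65% of windows) and the RBPJ motif GTGGGAA (6.39%) were found in none of the 9 windows. A match shows only that these letters are there, and a missing match only that they are not.

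The libraries held 27301396 to 123907626 counts, with a median of 38191068, and the 10 most abundant genes took 6.34% to 9.03% of a library. As a check on the sort, Dll1 itself read 7.61 to 50.3 counts per 1000000 (CPM) in the 4 Dll1- libraries and 87.5 to 250.2 CPM in the 4 Dll1+ libraries. It was higher in Dll1+ cells by 2.90 on the log2 scale (adjusted p = 0.00651). Epcam, an epithelial surface protein, was at 899 to 1240 CPM in all libraries, while Ptprc (CD45) was at 2.88 to 12.7 CPM and Pecam1 (CD31) at 13.7 to 98.2 CPM, so RNA of removed cell types was still found, most of it in PyMT-Dll1mCh libraries. CPM values below are scaled by edgeR's TMM factors. Adjusted p-values are from edgeR's quasi-likelihood F test with Benjamini-Hochberg adjustment over all 18322 genes tested and a cutoff at 0.05, and the Dll1 comparisons keep the mouse in the model. Differences are given as log2 fold changes with their standard error (SE).

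Cdkn2c fell in Dll1+ cells, in all 4 mice and in each reporter line, and was the only member to pass the test over the 4 mice. In TMM-scaled CPM, Cdkn1a and Cdkn1b read higher in the Dll1+ library of every mouse, and Cdkn2d read lower in every mouse. None of these 3 passed the test over the 4 mice. In single lines, Cdkn2b rose in Dll1+ cells of PyMT-Dll1GFP mice and Cdkn1b in Dll1+ cells of PyMT-Dll1mCh mice. The test thus called 1 of the 6 members over the 4 mice, where it called 14.0% of all tested genes (6.98% higher and 7.04% lower). It called 2 of 6 in PyMT-Dll1GFP mice, where it called 9.13% of all genes (4.29% higher and 4.84% lower), and 2 of 6 in PyMT-Dll1mCh mice, where it called 11.8% (5.51% higher and 6.25% lower). In these bulk libraries, fewer cells of a type and less RNA per cell cannot be told apart. The fits for the 4 mice and for each line use the same libraries, so their values are not independent of each other.

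**Figure D1:**
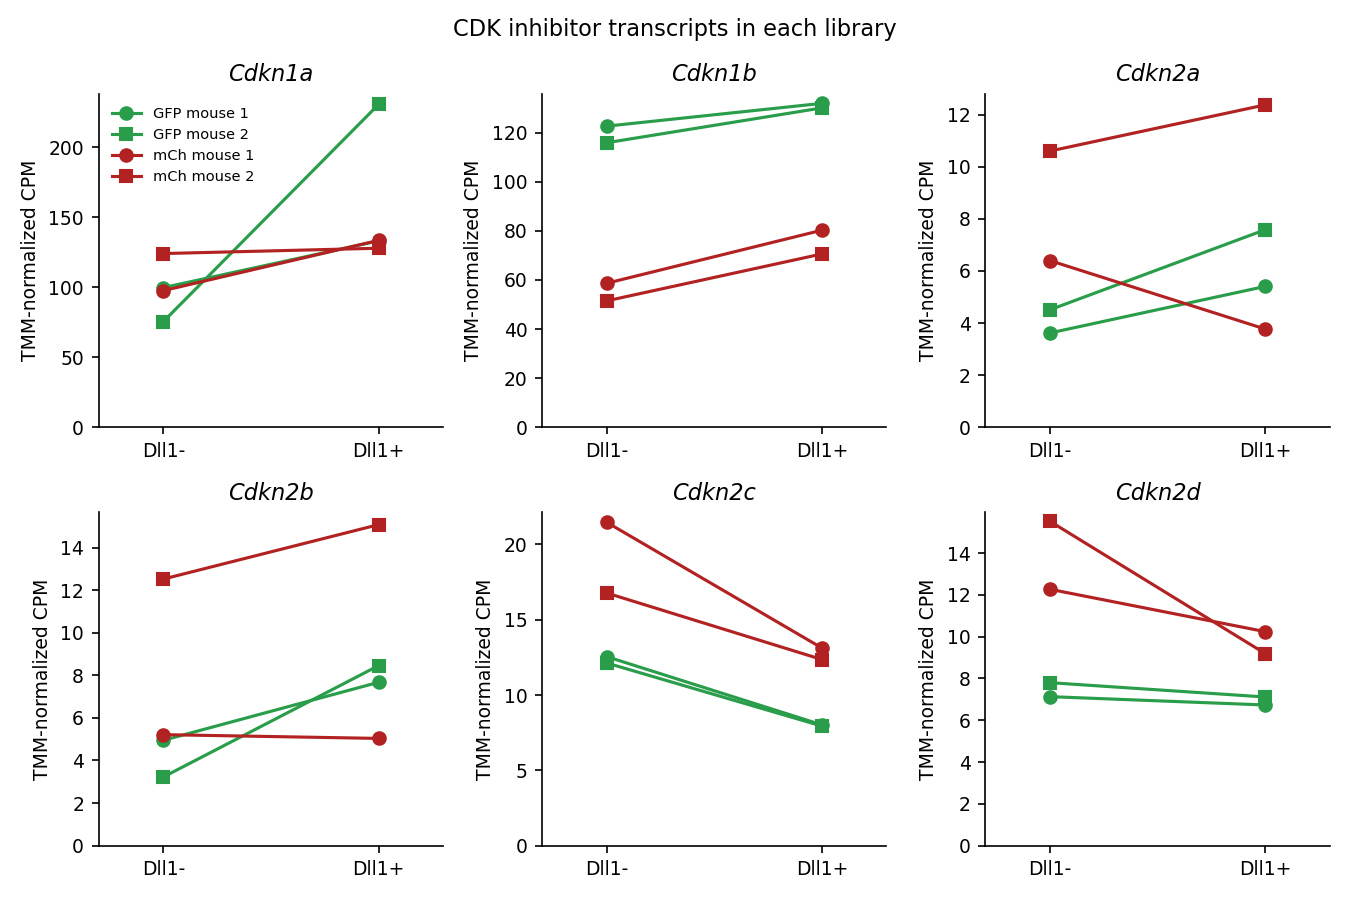
Each panel plots 1 CDK inhibitor as TMM-normalized CPM in the Dll1- and Dll1+ library of each mouse, with a line joining the 2 libraries of a mouse and an axis that starts at 0. The Cdkn2c lines go down in 4 of 4 mice, the Cdkn1b lines go up in 4 of 4 with the PyMT-Dll1GFP mice above the PyMT-Dll1mCh mice, and Cdkn1a of PyMT-Dll1GFP mouse 2 goes from 75.4 to 230.7 CPM.

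Cdkn1a, the p53-responsive inhibitor, read 99.7 CPM in Dll1- cells and 133 CPM in Dll1+ cells of PyMT-Dll1GFP mouse 1. It read 75.4 and 230.7 CPM in those of PyMT-Dll1GFP mouse 2. In the PyMT-Dll1mCh line it read 97.6 and 134 CPM in mouse 1, and 124 and 128 CPM in mouse 2. In TMM-scaled CPM all 4 Dll1+ libraries were above all 4 Dll1- libraries. That held for Cdkn1a alone among the members and for 6.07% of all tested genes in one or the other direction. The steps were far from equal, from 3.06-fold in PyMT-Dll1GFP mouse 2 to 1.03-fold in PyMT-Dll1mCh mouse 2. As counts per kilobase of exon, scaled to the same sum in each library without TMM factors, PyMT-Dll1mCh mouse 2 went down, from 85.2 to 79.9. On that scale the Dll1+ and Dll1- groups overlapped. For the 4 mice together the fitted difference was 0.62 on the log2 scale (SE 0.27, 95% interval -0.07 to 1.32), and the test did not call it (adjusted p = 0.186). Without PyMT-Dll1GFP mouse 2 the log2 fold change was 0.31 (adjusted p = 0.132). The log2 fold change was 1.02 in PyMT-Dll1GFP mice (adjusted p = 0.175) and 0.25 in PyMT-Dll1mCh mice (adjusted p = 0.669).

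Genes induced by stress and by tissue dissociation, such as Fos and Jun, mostly read higher in Dll1+ cells. Of the 13 genes on this list, 7 rose in Dll1+ cells over the 4 mice and 0 fell, where the test called 6.98% of all tested genes higher and 7.04% lower. From Dll1- to Dll1+ cells their summed level went from 19815 to 32738 CPM in PyMT-Dll1GFP mouse 1 and from 23907 to 31344 CPM in mouse 2. It went from 13892 to 21307 CPM in PyMT-Dll1mCh mouse 1 and from 18541 to 25030 CPM in mouse 2. In TMM-scaled CPM, both this sum and Cdkn1a were higher in the Dll1+ than in the Dll1- library of each mouse. The part of these genes in the Cdkn1a values was not tested.

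Cdkn1b, the p27 gene, read 123 CPM in Dll1- and 132 CPM in Dll1+ cells of PyMT-Dll1GFP mouse 1, and 116 and 130.1 CPM in those of mouse 2. In the PyMT-Dll1mCh line it read 58.6 and 80.3 CPM in mouse 1, and 51.5 and 70.6 CPM in mouse 2. The Dll1+ library was the higher in each mouse, but the lines stood so far apart that the Dll1+ and Dll1- groups overlapped. In PyMT-Dll1mCh mice Cdkn1b rose by 0.45 on the log2 scale (SE 0.07, 95% interval 0.28 to 0.63, adjusted p = 0.0172), or 1.37-fold. In PyMT-Dll1GFP mice the log2 fold change was 0.14 (SE 0.07, 95% interval -0.03 to 0.31, adjusted p = 0.279). Over the 4 mice it was 0.30 (SE 0.08, 95% interval 0.10 to 0.49), just short of the threshold (adjusted p = 0.0613). That value crossed the threshold in 4 of 10 alternatives, where adjusted p was 0.00727 to 0.0499. These were RLE size factors, DESeq2, no filter on low counts and at least 10 counts in every library. It stayed above the threshold with library totals alone in place of TMM factors, without the mouse in the model and without any 1 of the mice. The call in PyMT-Dll1mCh mice was lost without PyMT-Dll1mCh mouse 1 (adjusted p = 0.0670) or mouse 2 (adjusted p = 0.0752), without the mouse in the model (adjusted p = 0.0821) and with the line fitted alone (adjusted p = 0.0730).

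Cdkn2c, the p18 gene, was the member with the most even change. In PyMT-Dll1GFP mice it went from 12.6 CPM in Dll1- to 8.02 CPM in Dll1+ cells of mouse 1, and from 12.1 to 7.94 CPM in mouse 2. In PyMT-Dll1mCh mice it went from 21.5 to 13.1 CPM in mouse 1 and from 16.8 to 12.4 CPM in mouse 2. The Dll1+ level was between 0.612 and 0.737 times the Dll1- level of the same mouse. Over the 4 mice Cdkn2c fell by 0.60 on the log2 scale (SE 0.09, 95% interval -0.81 to -0.39, adjusted p = 0.0126), which is a level 34.1% lower. It fell by 0.63 in PyMT-Dll1GFP mice (SE 0.13, adjusted p = 0.0360) and by 0.58 in PyMT-Dll1mCh mice (SE 0.13, adjusted p = 0.0369). The effects of the lines differed by 0.05 (95% interval -0.39 to 0.49, adjusted p = 0.943), which leaves room for a difference of up to 0.49. The direction was the same without any 1 of the mice. The call over the 4 mice was lost without PyMT-Dll1GFP mouse 1 (adjusted p = 0.0622), PyMT-Dll1GFP mouse 2 (0.0528) or PyMT-Dll1mCh mouse 1 (0.0747). The calls within a line were lost without either mouse of that line (adjusted p = 0.245 and 0.234 in PyMT-Dll1GFP mice without mouse 1 or mouse 2, and 0.187 and 0.0599 in PyMT-Dll1mCh mice). They were also lost without the mouse in the model (adjusted p = 0.123 and 0.102), and the PyMT-Dll1mCh call was lost with that line fitted alone (adjusted p = 0.0866) and without PyMT-Dll1GFP mouse 1 (adjusted p = 0.0746) or mouse 2 (adjusted p = 0.0772).

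Cdkn2d, the p19Ink4d gene, read 7.13 CPM in Dll1- and 6.73 CPM in Dll1+ cells of PyMT-Dll1GFP mouse 1, and 7.80 and 7.11 CPM in those of mouse 2. In PyMT-Dll1mCh mice it read 12.3 and 10.2 CPM in mouse 1, and 15.5 and 9.19 CPM in mouse 2. The Dll1+ library was the lower in each of the 4 mice, by little in the PyMT-Dll1GFP line. For the 4 mice together the fitted difference was -0.31 on the log2 scale (SE 0.14, 95% interval -0.65 to 0.03, adjusted p = 0.184). It was -0.50 in PyMT-Dll1mCh mice (adjusted p = 0.0986) and -0.11 in PyMT-Dll1GFP mice (adjusted p = 0.748). One direction in all 4 mice in TMM-scaled CPM, as seen for Cdkn1a, Cdkn1b, Cdkn2c and Cdkn2d, was seen for 41.3% of all tested genes.

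Cdkn2b, the p15 gene, which TGF-beta is known to induce, read 4.95 CPM in Dll1- and 7.67 CPM in Dll1+ cells of PyMT-Dll1GFP mouse 1, and 3.22 and 8.45 CPM in those of mouse 2. In PyMT-Dll1mCh mice it read 5.21 and 5.04 CPM in mouse 1, and 12.5 and 15.1 CPM in mouse 2. In the PyMT-Dll1GFP line both Dll1+ libraries were above both Dll1- libraries, while in the PyMT-Dll1mCh line the mice were farther apart than the sorted populations. Cdkn2b rose in PyMT-Dll1GFP mice by 1.01 on the log2 scale (SE 0.23, 95% interval 0.46 to 1.55, adjusted p = 0.0451). This call was lost without PyMT-Dll1GFP mouse 1 (log2 fold change 1.40, adjusted p = 0.106), without PyMT-Dll1GFP mouse 2 (0.63, adjusted p = 0.303) and without the mouse in the model (0.98, adjusted p = 0.484). In PyMT-Dll1mCh mice the log2 fold change was 0.11 (95% interval -0.40 to 0.62, adjusted p = 0.766), and over the 4 mice it was 0.54 (adjusted p = 0.187).

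Cdkn2a, the neighbour of Cdkn2b, read 3.62 CPM in Dll1- and 5.41 CPM in Dll1+ cells of PyMT-Dll1GFP mouse 1, and 4.51 and 7.58 CPM in those of mouse 2. In PyMT-Dll1mCh mice it read 6.40 and 3.77 CPM in mouse 1, and 10.6 and 12.4 CPM in mouse 2. The direction was thus up in 3 mice and down in 1. The log2 fold change was 0.67 in PyMT-Dll1GFP mice (adjusted p = 0.177), -0.27 in PyMT-Dll1mCh mice (adjusted p = 0.530) and 0.19 over the 4 mice (SE 0.27, 95% interval -0.47 to 0.85, adjusted p = 0.663). Without PyMT-Dll1mCh mouse 1 the value in that line turned to 0.20. Cdkn2a and Cdkn2b rested on the fewest reads of the 6, with 106 to 799 and 93 to 838 counts per library, against 2176 to 12185 for Cdkn1a.

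**Figure D2:**
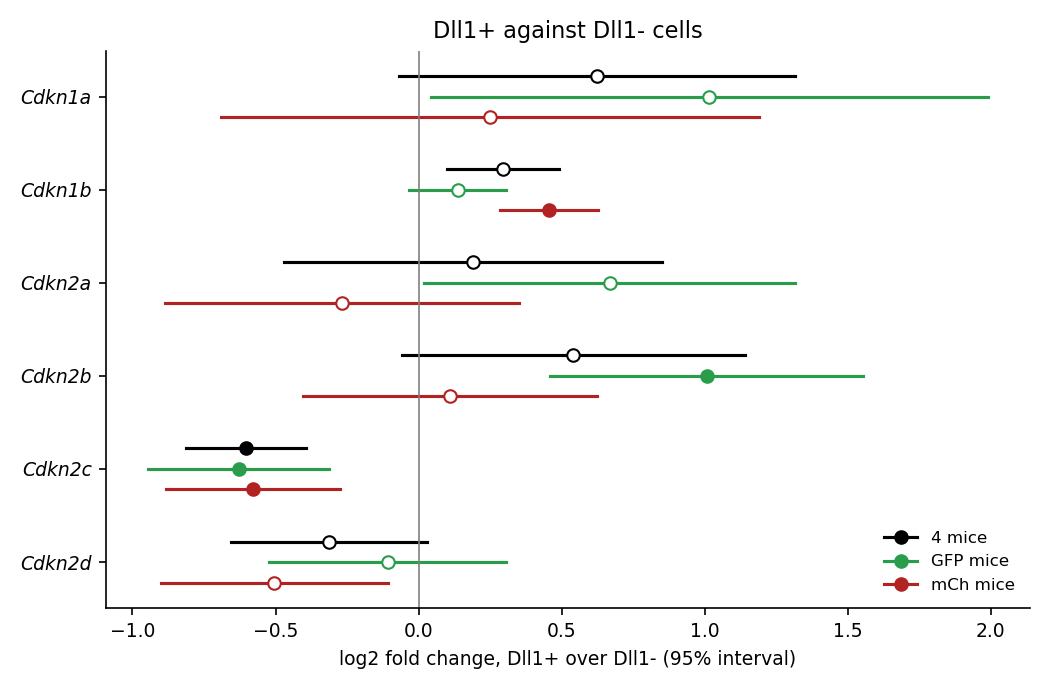
Points give the log2 fold change of Dll1+ over Dll1- cells for each member over the 4 mice (black), in PyMT-Dll1GFP mice (green) and in PyMT-Dll1mCh mice (red), with 95% intervals from the edgeR fit, and filled points passed the adjusted threshold. The 3 Cdkn2c values lie together between -0.63 and -0.58, while Cdkn1a, Cdkn2a and Cdkn2b have wide intervals and higher values in PyMT-Dll1GFP mice.

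The difference of the Dll1 effect between the lines was tested for each gene. It passed the threshold for 0 of the 6 members and for 0.0710% of all genes, which is 13 genes (0.00546% with the higher and 0.0655% with the lower effect in PyMT-Dll1mCh mice), while 2420 genes had an unadjusted p under 0.05. With DESeq2 it called none of the 6 members, and without a filter on low counts edgeR called 1, Cdkn2b (adjusted p = 0.0438). The effect on Cdkn1b was larger in PyMT-Dll1mCh mice by 0.32 on the log2 scale (unadjusted p = 0.0176, adjusted p = 0.271 in edgeR). The effects on Cdkn2b and Cdkn2a were lower in PyMT-Dll1mCh mice, with differences of -0.90 (unadjusted p = 0.0258, adjusted p = 0.300 in edgeR) and -0.94 (unadjusted p = 0.0433, adjusted p = 0.360 in edgeR). Differences between the lines in how these genes moved were therefore not shown beyond the spread between mice.

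Levels of different genes were compared as counts per kilobase of exon, scaled to the same sum in each library (1000000). On this scale Cdkn1a was the most abundant of the 6, with a level of 93.2 ± 39.0 (SD, n = 8 libraries), and Cdkn1b followed with 55.6 ± 24.6. The Cip/Kip pair made up most of the inhibitor transcripts, Cdkn1a with 34.1% to 57.2% and Cdkn1b with 14.1% to 40.9% of the summed level of the 6 in a library. Over all 8 libraries the levels of Cdkn1a and Cdkn1b overlapped, but in the 4 PyMT-Dll1mCh libraries they did not, at 64.2 to 85.5 for Cdkn1a and 27.6 to 40.1 for Cdkn1b. The ratio of the Cdkn1a to the Cdkn1b level was 2.13 to 3.09 in that line and 0.834 to 2.27 in the PyMT-Dll1GFP line. The INK4 genes were lower, and the lowest Cdkn1b level, 27.6, was above the highest level of any INK4 gene, 24.1. Cdkn2d had a level of 15.3 ± 4.03, Cdkn2a 14.6 ± 6.01, Cdkn2b 14.1 ± 6.65 and Cdkn2c 12.3 ± 3.49, and the spread of each was larger than the step to its neighbour in this order. Cdkn1a was first in 7 of 8 libraries, and Cdkn1b in the Dll1- library of PyMT-Dll1GFP mouse 2. The order among the INK4 genes changed from library to library, and Cdkn2c was the lowest of the 6 in 4 libraries.

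**Figure D3:**
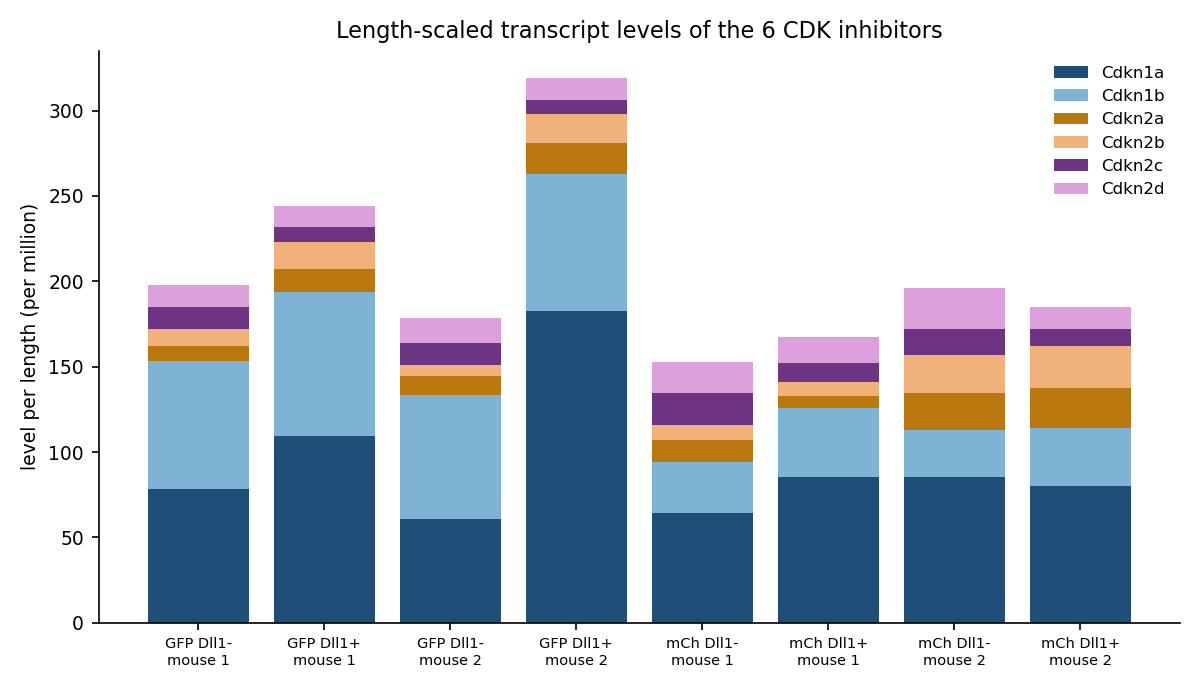
Stacked bars give the level per exon length (scaled to a sum of 1000000 per library) of the 6 CDK inhibitors in each of the 8 libraries, with an axis that starts at 0. Cdkn1a and Cdkn1b (blue) fill most of each bar, and the Dll1+ library of PyMT-Dll1GFP mouse 2 has the tallest bar with a Cdkn1a level of 182.

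Set against their targets on the same scale, the summed Cip/Kip level was higher relative to Cdk2, Ccne1 and Ccne2, the kinase and E cyclins it acts on, in the Dll1+ library of each mouse. The ratio went from 4.25 to 7.84 in PyMT-Dll1GFP mouse 1 and from 4.22 to 10.8 in mouse 2, and from 2.49 to 5.89 in PyMT-Dll1mCh mouse 1 and from 3.68 to 5.26 in mouse 2. The ratio of the summed INK4 level to Cdk4 and Cdk6 went from 0.220 to 0.386 and from 0.229 to 0.454 in the PyMT-Dll1GFP mice. It went from 0.213 to 0.211 and from 0.402 to 0.417 in the PyMT-Dll1mCh mice. The INK4 sum includes Cdkn2a, whose counts do not separate p16Ink4a from p19Arf, so the INK4 part of it is not known. The summed level of Cdk2, Ccne1 and Ccne2 was itself lower in the Dll1+ library of each mouse, as was that of Cdk4 and Cdk6. The Cip/Kip sum went from 134 to 263 in PyMT-Dll1GFP mouse 2 but from 112.7 to 114.3 in PyMT-Dll1mCh mouse 2. In the latter, Cdk2 and the E cyclins went from 30.6 to 21.7. The INK4 sum fell in the PyMT-Dll1mCh mice, from 58.5 to 41.5 in mouse 1, and rose in the PyMT-Dll1GFP mice. These ratios of transcripts are descriptions without a test, and say nothing of protein levels.

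Between the reporter lines, Cdkn1b was lower and Cdkn2d higher in every PyMT-Dll1mCh library than in any PyMT-Dll1GFP library. Such a split between the lines was seen for 2 of the 6 members and for 43.4% of all tested genes, so it was common. In Dll1- cells the test called 3 of the 6 members where it called 36.6% of all genes (18.7% higher and 17.9% lower in PyMT-Dll1mCh mice). Cdkn1b was lower in PyMT-Dll1mCh mice, at -1.11 on the log2 scale (SE 0.11, 95% interval -1.37 to -0.86, adjusted p = 0.00150). Cdkn2d was higher by 0.89 (SE 0.18, 95% interval 0.47 to 1.31, adjusted p = 0.00946), and Cdkn2c by 0.63 (SE 0.16, 95% interval 0.264 to 1.005, adjusted p = 0.0198). In Dll1+ cells the test called 2 of the 6 where it called 30.6% of all genes (15.2% higher and 15.4% lower). Cdkn1b was again lower there, by -0.80 (SE 0.11, adjusted p = 0.00519), and Cdkn2c higher, by 0.67 (SE 0.16, adjusted p = 0.0206). The Cdkn1b calls held in 11 of 11 alternatives in both populations. The Cdkn2c and Cdkn2d calls were less firm. In Dll1- cells the Cdkn2d call was lost without the library of PyMT-Dll1GFP mouse 1 (adjusted p = 0.0717) or mouse 2 (adjusted p = 0.0510). The Cdkn2c call was lost there without that of PyMT-Dll1GFP mouse 1 (adjusted p = 0.0969) or mouse 2 (adjusted p = 0.109) or PyMT-Dll1mCh mouse 1 (adjusted p = 0.0888), and with the 4 libraries fitted alone (adjusted p = 0.0591). In Dll1+ cells the Cdkn2c call was lost without any 1 of the 4 libraries, with adjusted p of 0.0985 and 0.111 for PyMT-Dll1GFP mouse 1 and mouse 2, and 0.0958 and 0.0541 for PyMT-Dll1mCh mouse 1 and mouse 2.

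Cdkn1a, Cdkn2a and Cdkn2b did not pass the test between the lines. The log2 fold change of PyMT-Dll1mCh over PyMT-Dll1GFP mice was 0.34 for Cdkn1a in Dll1- cells (95% interval -0.31 to 0.99, adjusted p = 0.369) and -0.48 in Dll1+ cells (95% interval -1.13 to 0.17, adjusted p = 0.220). In Dll1- cells it was 1.06 for Cdkn2a (95% interval -0.28 to 2.39, adjusted p = 0.183) and 1.10 for Cdkn2b (95% interval -0.34 to 2.55, adjusted p = 0.198). In Dll1+ cells it was 0.31 for Cdkn2a (95% interval -0.99 to 1.61, adjusted p = 0.690) and 0.32 for Cdkn2b (95% interval -1.09 to 1.72, adjusted p = 0.705). Both reversed in Dll1+ cells without the library of PyMT-Dll1mCh mouse 2, to -0.79 for Cdkn2a and -0.69 for Cdkn2b. The intervals for Cdkn2a and Cdkn2b in Dll1+ cells reach far to both sides of 0.

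**Figure D4:**
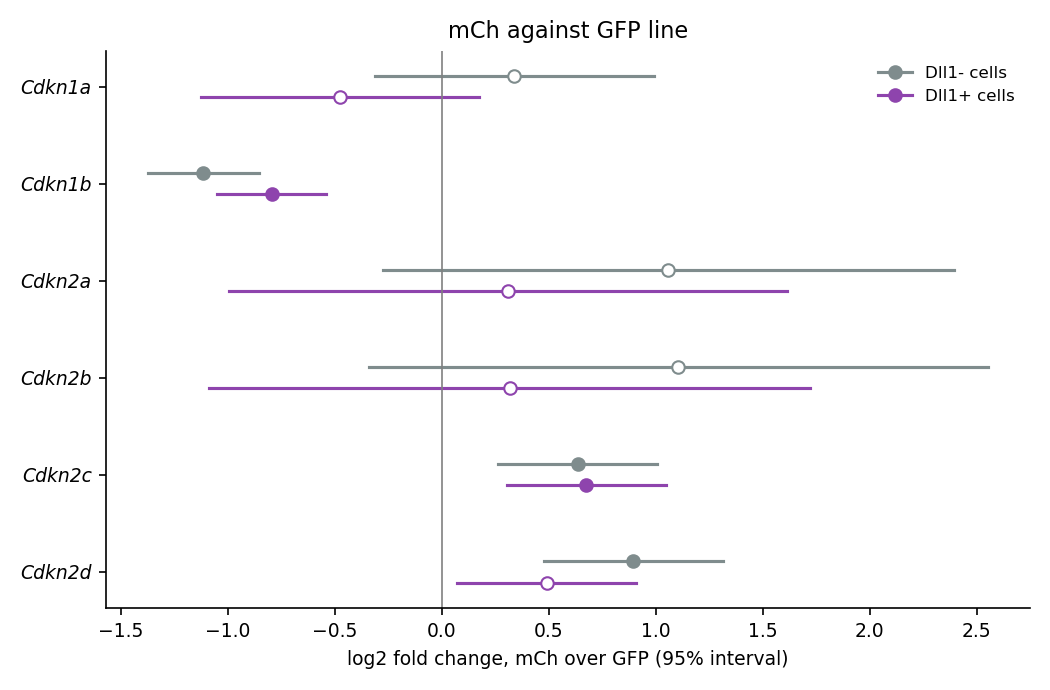
Points give the log2 fold change of PyMT-Dll1mCh over PyMT-Dll1GFP mice for each member in Dll1- cells (grey) and Dll1+ cells (purple), with 95% intervals from the edgeR fit of 4 groups of 2 libraries, and filled points passed the adjusted threshold. Cdkn1b lies at -1.11 and -0.80 in the 2 populations, and Cdkn2c at 0.63 and 0.67.

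The reporter construct, the mouse line and any handling shared within a line cannot be told apart in these comparisons, and the lines also differed in markers of other cells. Of 10 fibroblast markers, 10 were higher in Dll1- and 7 in Dll1+ cells of PyMT-Dll1mCh than of PyMT-Dll1GFP mice. Their summed level was 1249 to 1457 CPM in the 4 PyMT-Dll1GFP libraries, 8385 and 23950 CPM in PyMT-Dll1mCh Dll1- cells and 3707 and 3851 CPM in PyMT-Dll1mCh Dll1+ cells. Endothelial markers summed to 60.7 to 68.1 CPM in the PyMT-Dll1GFP line and 117 to 461 CPM in the PyMT-Dll1mCh line, with 9 of 9 higher in Dll1- and 3 of 9 in Dll1+ cells. Immune markers summed to 271 to 460 and 494 to 844 CPM, with 12 of 13 tested markers higher in Dll1- and 8 of 13 in Dll1+ cells. Pericyte markers summed to 234 to 284 CPM in the PyMT-Dll1GFP line, 737 to 910 CPM in PyMT-Dll1mCh Dll1- and 262 to 297 CPM in PyMT-Dll1mCh Dll1+ cells. Basal markers summed to 163 to 200 CPM in Dll1- and 257 to 455 CPM in Dll1+ cells of PyMT-Dll1GFP mice, and to 492 to 838 against 1671 to 1677 CPM in those of PyMT-Dll1mCh mice. Of 11 basal markers, 5 rose and 0 fell in Dll1+ cells over the 4 mice, with 2 rising in PyMT-Dll1GFP and 6 in PyMT-Dll1mCh mice. Luminal markers summed to 6174 to 9899 CPM over all libraries. Within PyMT-Dll1mCh mice, 5 of 10 fibroblast, 5 of 7 pericyte, 8 of 13 immune and 4 of 9 endothelial markers fell from Dll1- to Dll1+ cells, where Cdkn2c fell and Cdkn1b rose. In PyMT-Dll1GFP mice 0 of 10 fibroblast, 0 of 9 endothelial and 0 of 7 pericyte markers passed the edgeR test for Dll1+ against Dll1- cells, while 1 of 13 immune markers rose and 1 of 5 tested erythroid markers fell. Erythroid markers summed to 6.03 to 15.0 CPM in the PyMT-Dll1GFP and 34.8 to 181 CPM in the PyMT-Dll1mCh line. The immune marker Cd3g was at 0 in 1 of the 8 libraries. The part of other cells in the values of the inhibitors was not tested.

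Across the 8 libraries, some members ran together. Cdkn2a and Cdkn2b, the neighbours on chromosome 4, had a Pearson correlation of log2 CPM of 0.88, and Cdkn2c and Cdkn2d one of 0.82. Cdkn1b ran opposite to Cdkn2d (-0.96) and to Cdkn2c (-0.83). These values are descriptions over 8 points that share 4 mice and 2 reporter lines, and the gap between the lines is in each of them.

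For each member, the genes with the most similar log2 CPM over the 8 libraries were sought among 13258 protein-coding genes that averaged 1 CPM or more. Those closest to Cdkn2c were Rpa2 (correlation 0.999), Racgap1 (0.998) and Gins2 (0.997), with roles in DNA replication and cell division. Those closest to Cdkn1b were Reps2 (0.999), Trps1 (0.998) and 2610008E11Rik (0.997), and to Cdkn2d Mfng (0.996), Ms4a4d (0.996) and Col5a2 (0.995), a fibrillar collagen. Cdkn1a was closest to Ephx1 (0.949), Pgghg (0.928) and Stim1 (0.917), Cdkn2a to Stk10 (0.972), Nyap1 (0.970) and Lhfpl2 (0.958), and Cdkn2b to Cmbl (0.980), Syt12 (0.979) and Lrrc49 (0.972). These genes are the highest of many candidates over only 8 libraries, and nothing is read from them about shared control.

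Among the partners and targets of the inhibitors, many genes of S phase fell in Dll1+ cells. For the counts that follow, the test called 14.0% of all tested genes over the 4 mice, 6.98% higher and 7.04% lower. Of 13 cyclins and CDKs of G1 and S phase, 5 fell and 0 rose in Dll1+ cells over the 4 mice, and the median log2 fold change of the list was -0.22, beside -0.00068 over all tested genes. Ccna2, the A cyclin of S phase, fell by 1.36 on the log2 scale (adjusted p = 0.00633), and Ccne1, the E cyclin that works with CDK2, by 1.29 (adjusted p = 0.0188). Cdc25a, the phosphatase that activates CDK2, fell by 0.71 (adjusted p = 0.00829), and Cdk4, the kinase that INK4 proteins bind, by 0.48 (adjusted p = 0.0342). The D cyclin Ccnd1, named after its value was seen, stood at -0.09 on the log2 scale (adjusted p = 0.515).

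Of 13 RB and E2F genes, 2 rose and 6 fell, with a median of -0.28. Rb1, the pocket protein that the inhibitors keep active, rose by 0.96 on the log2 scale (adjusted p = 0.00978), higher in 4 of 4 mice. Tfdp1, the DNA-binding partner of E2F, fell by 0.67 (adjusted p = 0.00633), and the late repressors E2f8 and E2f7 fell by 1.35 (adjusted p = 0.0125) and 1.20 (adjusted p = 0.0140). Of 15 proliferation genes, 14 fell and 0 rose, with a median of -1.14, among them Rrm2 (-1.52), Plk1 (-1.45), Aurka (-1.14) and Mcm6 (-0.97), each with adjusted p = 0.00534. Their summed level was 837 and 863 CPM in Dll1- against 377 and 396 CPM in Dll1+ cells of PyMT-Dll1GFP mice, and 1443 and 1162 against 654 and 703 CPM in those of PyMT-Dll1mCh mice. Their summed level was lower in the Dll1+ than in the Dll1- library of each mouse, as was Cdkn2c, and their part in the Cdkn2c values was not tested.

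Of 17 tested genes for proteolysis of p21 and p27, 3 fell and 0 rose, with a median of -0.11. The test called 14.0% of all tested genes in either direction, so this count was near that share. In PyMT-Dll1GFP mice 4 of the 17 fell, and in PyMT-Dll1mCh mice 1 fell, where 9.13% and 11.8% of all genes were called. Skp2, the ubiquitin ligase subunit that recognizes p27, fell by 1.03 on the log2 scale (adjusted p = 0.0121), Dtl, the adaptor for p21 degradation in S phase, by 0.75 (adjusted p = 0.0309), and Fzr1, an activator of the anaphase-promoting complex, which degrades SKP2, by 0.30 (adjusted p = 0.0342). Of 18 genes of the p53 axis, 8 rose and 0 fell, with a median of 0.25. In PyMT-Dll1GFP mice 2 rose, where 4.29% of all genes were called higher, and in PyMT-Dll1mCh mice 5 rose, where 5.51% were. Trp63 is on both this list and the list of basal markers. Trp53inp1, a p53 target, rose by 1.32 (adjusted p = 0.00534), Btg2, an antiproliferative p53 target, by 0.54 (adjusted p = 0.0171), and Bbc3, which encodes the death factor PUMA, by 0.40 (adjusted p = 0.0185). Trp73, a relative of p53, rose by 2.77 (adjusted p = 0.00825) from a mean of 0.126 to 0.839 CPM. Each of these was higher in Dll1+ cells of 4 of 4 mice, while Trp53, Zmat3 and Aen of the same list were higher in 1 of 4.

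Of 24 other regulators of Cip/Kip transcription, 6 rose and 1 fell, with a median of 0.05. The Notch targets Hey1 and Hes1, which encode repressors, rose by 1.02 (adjusted p = 0.00850) and 0.42 (adjusted p = 0.0151) on the log2 scale, and Klf6 and Egr1, early-response factors, by 0.52 (adjusted p = 0.0136) and 0.71 (adjusted p = 0.0167). The gene that fell was Tbx3, a repressor of cell cycle inhibitors named after its value was seen, at -2.01 on the log2 scale (adjusted p = 0.0179). Of 23 Polycomb genes and other regulators of the Ink4 locus, 2 rose and 1 fell, with a median of 0.14. The test called 14.0% of all tested genes in either direction, so this count was near that share. Ezh2, the methyltransferase of dividing cells, fell by 0.36 (adjusted p = 0.0439), while its relative Ezh1 rose by 0.34 (adjusted p = 0.0210) and the Polycomb reader Cbx7 by 0.45 (adjusted p = 0.0408).

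Of 4 other CDK inhibitors and relatives, 1 fell and 3 did not pass. Cdkn3, a phosphatase that acts on CDK2 and is known to peak in dividing cells, fell by 1.32 on the log2 scale (SE 0.15, adjusted p = 0.00833), lower in 4 of 4 mice. Cdkn1c (p57), the remaining Cip/Kip gene, was at 6.06 to 20.5 CPM, and Dll1+ over Dll1- cells gave -0.11 on the log2 scale (SE 0.18, adjusted p = 0.705). It was higher in Dll1+ cells of PyMT-Dll1mCh than of PyMT-Dll1GFP mice, by 1.24 (adjusted p = 0.0183).

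**Figure D5:**
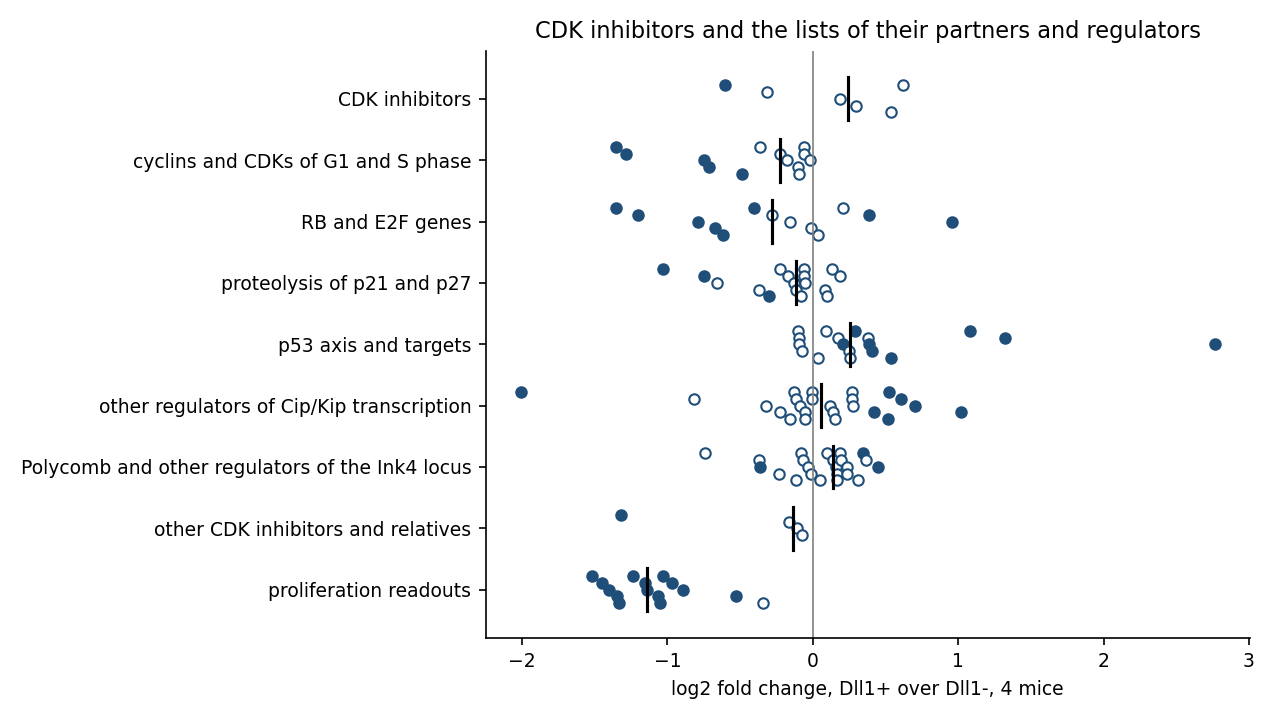
Each point is a gene, placed by its log2 fold change of Dll1+ over Dll1- cells in the 4 mice, with the 6 CDK inhibitors in the first row and the lists of their partners and regulators below, filled where the adjusted threshold was passed and with the list's median as a bar. The inhibitors lie between -0.60 and 0.62, while 14 of the 15 proliferation genes are filled and below 0, and 8 of the 18 p53 axis genes are filled and above 0.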

How the data were processed

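RNA-seq was read in 8 libraries, 1 Dll1+ and 1 Dll1- from each of 4 mice. Per the labels and the study's methods, stranded TruSeq reads were mapped with salmon to GENCODE mouse transcripts (GRCm38.p6) and summed to genes with tximport. The authors deposited estimated counts per gene as whole numbers, without normalization. Salmon shares reads between similar transcripts, and a gene's count can also move with transcript length. No column was left unassigned. Of 53697 genes, 53668 were matched to GENCODE M21 by identifier, and promoter windows came from RefSeq.

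Counts were tested in R 4.3.3 with edgeR 4.0.16 (TMM, filterByExpr on Dll1 status with a minimum count of 10, robust quasi-likelihood F test) and Benjamini-Hochberg adjustment over 18322 genes at 0.05. The model held Dll1 status and mouse, as both libraries of a mouse come from the same animal, then a Dll1 effect per reporter. Lines were compared with a model of 4 group means, since a mouse belongs to 1 line. A mouse's libraries deviated together in PyMT-Dll1mCh (r = 0.55 across genes) but not in PyMT-Dll1GFP mice (r = -0.05). Log2 CPM used a prior count of 2. Where a mouse or library was left out, a lone library was taken to vary like the others. Scripts were tested on simulated data. DESeq2 1.42.0 and other settings were alternatives. Intervals of the Dll1 comparisons cover the spread over 4 mice of the differences within a mouse. The model of 4 group means treats the 2 libraries of a mouse as independent. The Dll1 tests within a line were fitted on all 8 libraries, with 1 estimate of the spread shared over both lines. An effect within a line rests on its 2 mice, and its p-value also draws on the spread in the other line.

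The members and lists were chosen with earlier results of these data known. The genes named are the 6 members, up to 4 genes with the lowest p among those called of each list, Cdkn1c, Cdkn3, the 3 genes most like each member, Dll1 and 3 markers of the sort, and others are named as seen. Some genes of the marker lists are not reported here.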

Additional observations from a re-analysis of the deposited data

Results flagged for a closer look

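Cdkn1a in Dll1+ cells of PyMT-Dll1GFP mouse 2 stood apart from the other 3 Dll1+ libraries. It read 230.7 CPM where the others read 128 to 134 CPM, and the gap to the nearest of them was 0.945 of the whole range of the 4 values, above Dixon's 95% limit. The 12 groups of 4 libraries (6 members, Dll1+ and Dll1-) were looked at, and chance alone flags about 1 group in 20. The Dll1- library of the same mouse had the lowest Cdkn1a value of all 8 libraries, at 75.4 CPM.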

How the results depend on the processing

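With 2 mice per line, single calls were fragile while directions mostly held. Over the 4 mice edgeR called 2568 genes, against 4362 with DESeq2, and 2 of 6 members in place of 1 with RLE size factors, DESeq2, no filter on low counts or at least 10 counts in every library, the added member being Cdkn1b. Without the replicate block (the mouse), 1207 genes were called over the 4 mice, and 274 in PyMT-Dll1GFP and 212 in PyMT-Dll1mCh mice in place of 1673 and 2154, with 0 members in each line and 0 genes for the difference. The block on the replicate number between lines, which share only numbers, changed no member's call, and its correlations were 0.12 and -0.06. With no filter, 3001 genes were called in PyMT-Dll1GFP mice, 3637 in PyMT-Dll1mCh mice and 1143, with 1 member, for the difference, which gave 13 as reported, 540 with DESeq2 and 44 with at least 10 counts. PyMT-Dll1mCh mice fitted alone gave 0 genes and 0 members, and the 4 Dll1- libraries alone gave 4416 genes between lines in place of 6701. Leaving out 1 mouse or library gave 405 to 2400 genes and 0 to 1 members over the 4 mice, 2 to 2355 and 0 to 3 in PyMT-Dll1GFP mice, 905 to 1315 and 0 to 1 in PyMT-Dll1mCh mice, 0 to 717 and 0 to 0 for the difference, 2696 to 5844 and 1 to 3 between lines in Dll1- cells and 1084 to 3655 and 1 to 1 in Dll1+ cells, where 5612 were called as reported. The pathway lists had 49 calls, and 19 to 48 without 1 mouse. Log2 fold changes turned sign in 5 cases when a mouse or library was left out. The range was -0.79 to 0.20 for Cdkn2a and -0.079 to 0.25 for Cdkn2b in PyMT-Dll1mCh mice, -0.12 to 0.16 for Cdkn2c in the difference, and -0.79 to 0.88 for Cdkn2a and -0.69 to 0.86 for Cdkn2b between lines in Dll1+ cells. The turned values came without PyMT-Dll1mCh mouse 1 for Cdkn2a in that line and without its mouse 2 for the others. Fewer samples remain when a mouse is left out. For the other changes the cause was not tested. Of the other results for single members, 342 kept their direction and their side of the threshold, 29 lost a call and 8 gained one.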
